A study of Mus musculus with 8 samples.

Results

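A set of 10 genes that mark brown and beige fat cells was followed through 8 samples of mouse white adipose tissue: Ucp1, Cidea, Ppargc1a, Dio2, Elovl3, Cox7a1, Cox8b, Prdm16, Kcnk3 and Tbx1. They were taken by symbol, through the accession of each array probe. The 10 genes had 11 probes of the 55681 on the array, and 10 of the 25158 gene names that passed the filter on dim probes. All 11 probes were flagged as above background in both colours on all 4 arrays, with rebuilt flags for the array of replicate 1. Expression was measured on 2-colour Agilent arrays, on which total RNA of 1 sample is labelled with a red dye (Cy5) and that of another with a green dye (Cy3). The question was how overexpression of the Notch1 intracellular domain, the active part of that receptor, bears on these transcripts in white fat.

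The 4 Ad/NICD samples came from mice that overexpress the Notch1 intracellular domain, and the 4 WT samples from wild-type mice. Both groups were 5 weeks old, of mixed 129 × C57BL/6 strain, and ate regular chow. Which promoter or Cre drives the Notch1 construct, which fat depot was taken and of which sex the mice were is not stated in the labels. The labels number the samples 1 to 4 in each group and call them biological replicates, without naming animals. Each array carried the Ad/NICD and the WT sample of 1 number.

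Levels are log2 signals of 1 channel after background correction, loess within arrays and scaling of brightness between arrays, and differences are log2 ratios of Ad/NICD over WT within an array. Red was read as Ad/NICD and green as WT, the likely direction, because the authors' value table holds green in its WT columns and red in its Ad/NICD columns. The dye tag given with each sample has it the other way round. If the tags were right, every sign would turn and the levels of the groups would change places. No array had its dyes swapped, so dye and genotype cannot be told apart.

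Several facts of the samples bear on the values. Median foreground was 31 to 40 intensity units in the red channel over a background of 19 to 20, and 67 to 79 in the green channel over 45 to 46. WT replicates 1 and 3 differed with a spread of 0.106 log2 units over 17482 bright spots, less than the 0.123 to 0.160 between repeat spots of 1 probe on the same array and less than the 0.211 to 0.475 of the 27 other pairs of samples. They differed by less than this noise and were counted as 1 sample in each WT mean, so that n is 3 for WT and 4 for Ad/NICD. Both samples numbered 4 stood apart from the other 6. They were low in epithelial genes, with a median over 9 genes of 6.70 in Ad/NICD replicate 4 and 6.53 in WT replicate 4, against 9.60 to 10.63 in the other Ad/NICD samples and 10.64 to 10.76 in the other WT samples. Both also lacked Xist signal and carried Y-linked Eif2s3y, at 10.82 in Ad/NICD replicate 4 and 10.94 in WT replicate 4, against 5.81 to 6.06 in the other 6 samples. Heyl, a direct Notch target, was at 11.04, 11.98, 11.38 and 11.84 in the Ad/NICD samples, against 8.74, 8.78, 8.62 and 8.61 in the WT samples, a difference of 2.87 (limma, adjusted p = 0.0399). This call is lost wherever no gene name passes, as with median centring, no filter on dim probes, trend and robust moderation, the arrays of replicates 1 and 3 averaged, or replicate 1, 2 or 3 left out. Among 8 listed Notch targets Heyl was the 1 that passed. Mean ratios were above 0 for 6 of the 8 and below 0 for 2, Hey1 (-0.20) and Dtx1 (-0.07). The Notch1 probe did not separate the groups, at 10.32, 8.93, 8.85 and 8.53 in the Ad/NICD samples and 9.08, 8.59, 8.86 and 8.67 in the WT samples, and whether it lies in the overexpressed part was not tested.

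Brown and beige fat cells burn fatty acids and release the energy as heat. Noradrenaline acts on their beta-adrenergic receptors, cyclic AMP rises, and the coactivator Ppargc1a and nuclear receptors raise Ucp1, the inner-membrane protein that lets protons flow back into the matrix without making ATP. Beige cells arise inside white fat depots, where their number varies with depot, strain and temperature, and the transcriptional regulator Prdm16 is known to hold them in the thermogenic state.

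The stretches just upstream of 4 of these genes are shown because cyclic AMP and nuclear receptors are known to act through short motifs in such sequence. They are the 250 bases before the RefSeq start of the gene in GRCm38.p6, 5′ to 3′ on the gene's strand. Ucp1 and Dio2 are the textbook targets of the adrenergic signal, Ppargc1a is its coactivator, and Cox8b is a respiratory subunit that followed Ucp1 closely. Capitals mark matches to a nuclear receptor half-site (AGGTCA), a cyclic AMP response element (TGACGTCA) or its shorter form (ACGTCA), and a TATA box (TATAAA), searched on both strands. The Ucp1 stretch is chr8:83290098-83290347 on the plus strand, Dio2 chr12:90739039-90739288, Ppargc1a chr5:51567726-51567975 and Cox8b chr7:140900447-140900696, these 3 on the minus strand.
Ucp1: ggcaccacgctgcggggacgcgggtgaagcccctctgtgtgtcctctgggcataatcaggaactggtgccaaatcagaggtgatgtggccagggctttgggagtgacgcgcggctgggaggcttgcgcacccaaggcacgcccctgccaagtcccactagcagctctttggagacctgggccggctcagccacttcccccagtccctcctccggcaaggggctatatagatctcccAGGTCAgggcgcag
Dio2: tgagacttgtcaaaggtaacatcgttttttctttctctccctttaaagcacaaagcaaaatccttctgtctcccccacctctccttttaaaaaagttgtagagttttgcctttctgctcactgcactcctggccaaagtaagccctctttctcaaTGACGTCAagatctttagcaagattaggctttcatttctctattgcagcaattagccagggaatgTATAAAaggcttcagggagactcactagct
Ppargc1a: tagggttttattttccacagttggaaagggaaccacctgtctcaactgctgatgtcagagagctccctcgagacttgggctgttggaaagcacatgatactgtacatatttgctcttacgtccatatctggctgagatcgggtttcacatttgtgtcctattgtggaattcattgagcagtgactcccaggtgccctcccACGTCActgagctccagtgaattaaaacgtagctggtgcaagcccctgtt
Cox8b: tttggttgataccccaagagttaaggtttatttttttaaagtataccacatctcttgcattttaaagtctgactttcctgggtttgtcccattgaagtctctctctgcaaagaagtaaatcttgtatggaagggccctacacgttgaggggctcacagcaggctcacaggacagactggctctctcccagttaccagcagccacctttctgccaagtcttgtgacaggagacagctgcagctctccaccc

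In Ucp1 the half-site began 14 bases before the start. The same letters stood in 14% of the 32851 windows of this length in the table, so the match is common. Dio2 held the full cyclic AMP response element 95 bases before the start, which 1.55% of windows have and which contains the shorter form on both strands, and a TATA box 30 bases before the start, as in 12.4% of windows. Ppargc1a held the shorter form 50 bases before the start, found in 6.47% of windows. Windows were given for 7 of the 10 genes, 8 windows in all. None of the letters searched was in those of Cox8b, Cox7a1, Prdm16 or Tbx1. The core that RBPJ, the DNA-binding partner of the Notch intracellular domain, is known to bind (TGGGAA, in 21.6% of windows) was in none of the 8. These are matches of letters within short windows.

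Ucp1 spread widely inside both genotypes. It was at 14.66, 12.49, 12.57 and 13.90 in Ad/NICD replicates 1 to 4, against 12.24, 15.16, 13.03 and 13.44 in WT replicates 1 to 4. Over the 8 libraries the highest and the lowest were both WT, a 7.57-fold span, and all Ad/NICD samples lay between them. The low end rested on WT replicate 1. Counted as 1 sample, WT replicates 1 and 3 were at 12.63, above Ad/NICD replicates 2 and 3. The ratio was 2.42, -2.67, -0.46 and 0.45 on the 4 arrays, with a mean of -0.07 ± 0.80 (SE, n = 4 arrays). Its 95% interval ran from -2.09 to 1.96, and it did not pass the threshold of 0.05 (limma's moderated test, adjusted p = 0.978). Group means were 13.40 ± 1.06 (SD, n = 4) in Ad/NICD and 13.75 ± 1.29 (SD, n = 3) in WT. The spread of Ucp1 over the 8 samples was larger than that of 99.0% of all gene names. WT replicates 1 and 3 differed by -0.78 in Ucp1, -0.61 in Cox8b and -0.48 in Cidea (replicate 1 minus replicate 3). Before correction and scaling, their green signals were 8595 and 9869 for Ucp1. They were 26052 and 24624 for Cox8b, and 25319 and 21256 for Cidea, with replicate 1 the higher. Which step turns the direction was not tested. In normalised levels, of 2841 other genes with a mean level over 12, only 2 differed as far as Ucp1 between these libraries, and 95% of them lay between -0.35 and 0.23. In bulk tissue, fewer thermogenic cells and less Ucp1 RNA in each cell cannot be told apart.

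**Figure D1:**
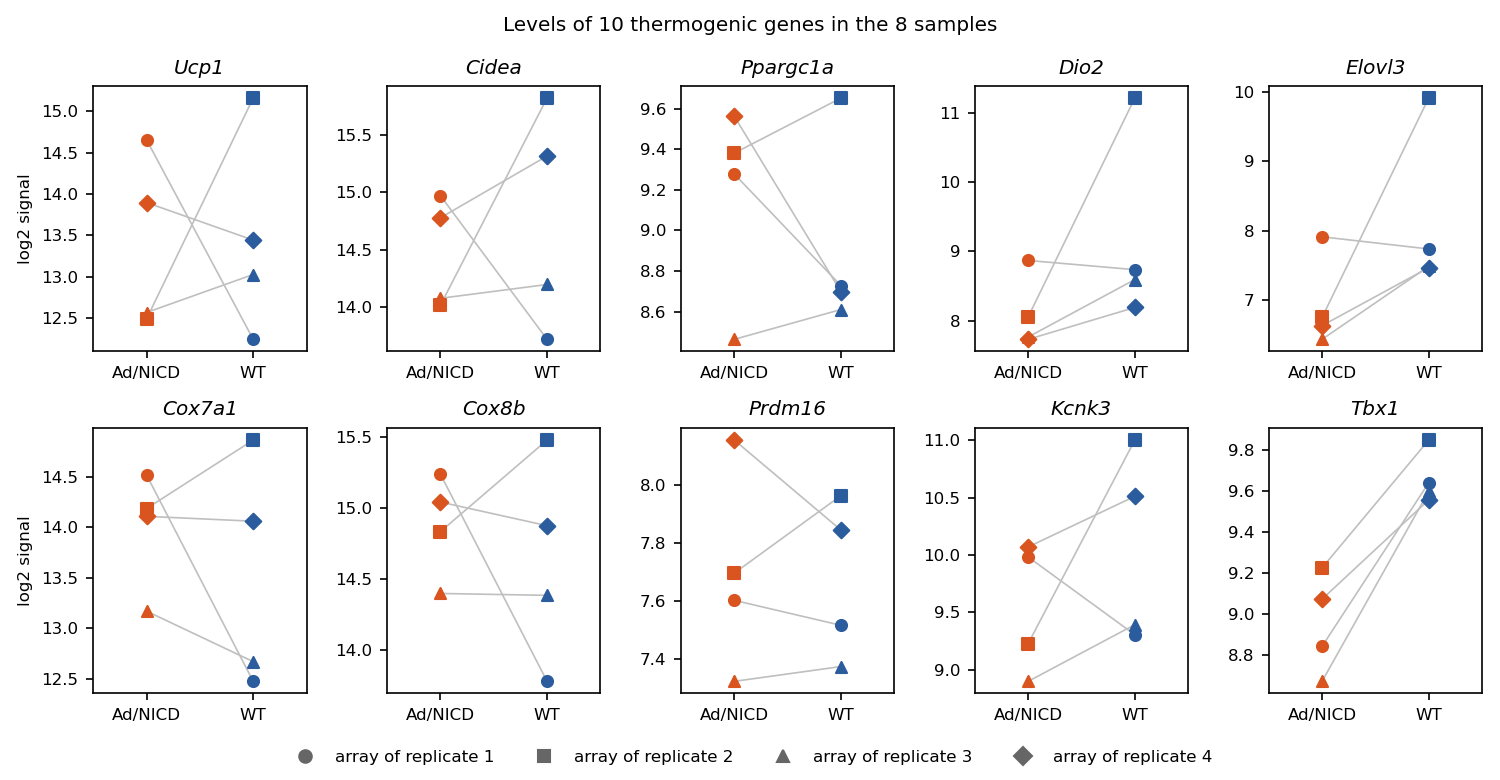
Log2 signal of the 10 genes in the 4 Ad/NICD samples (orange, left) and the 4 WT samples (blue, right), each panel on its own scale. A shape stands for the replicate number, and grey lines join the samples of 1 array. WT replicate 2 is the highest point for 9 of the 10 genes, and in Tbx1 alone of these 10 all Ad/NICD samples lie below all WT samples.

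None of the 10 genes passed the test across all genes, where 12 of 25158 gene names did (limma, adjusted p under 0.05), or 0.0477%, with 7 higher in Ad/NICD (0.0278%) and 5 lower (0.0199%). At an unadjusted p under 0.05, 15.2% of all gene names passed and of these 10 genes only Tbx1 did. Mean ratios were above 0 for 4 of the 10 genes and below 0 for 6, with a median of -0.18, beside -0.01 over all gene names. The sign of the mean rested on single arrays for several of them. Without the array of replicate 2 the mean ratio of Ucp1 was 0.80 and that of Cidea 0.20. Without the array of replicate 1, Ucp1 stood at -0.89, Cox7a1 at -0.04 and Cox8b at -0.16. The 95% intervals of 7 of the 10 genes reached beyond 1 log2 unit above or below 0. They did so on both sides for Ucp1, below 0 for Cidea, Dio2, Elovl3 and Kcnk3, and above 0 for Cox7a1 and Cox8b. For these genes a genotype difference of that size, in that direction, lay within the interval from 4 arrays.

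**Figure D2:**
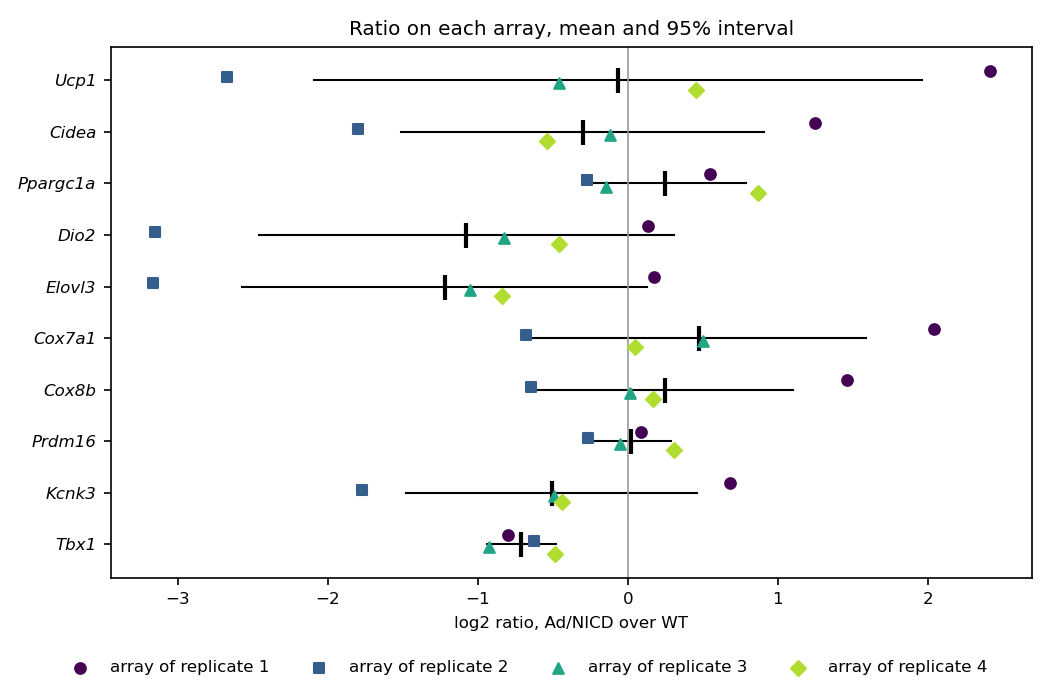
Log2 ratio of Ad/NICD over WT on each of the 4 arrays (coloured shapes), with the mean (black tick) and its 95% interval from limma (line). The array of replicate 1 lies highest and that of replicate 2 lowest for Ucp1, Cidea, Dio2, Elovl3, Cox7a1, Cox8b and Kcnk3, and all 4 arrays lie below 0 for Tbx1.

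Cidea, which coats lipid droplets and is abundant in brown and beige cells, was at 14.97, 14.02, 14.08 and 14.78 in the Ad/NICD samples, against 13.72, 15.82, 14.20 and 15.31 in the WT samples. The order of samples was close to that of Ucp1, with WT replicate 2 highest and WT replicate 1 lowest. Its mean ratio was -0.30 ± 0.48 (SE, n = 4, limma adjusted p = 0.808). Kcnk3, the potassium channel TASK-1 that marks brown and beige adipocytes, was at 9.98, 9.23, 8.90 and 10.07 in the Ad/NICD samples, against 9.30, 11.00, 9.39 and 10.51 in the WT samples. The groups overlapped, and the 2 genes ran nearly in parallel over the 8 samples (r = 0.95). The Kcnk3 ratio was -0.51 ± 0.38 (SE, n = 4, limma adjusted p = 0.588), and -0.90 without the array of replicate 1 or -0.09 without that of replicate 2.

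Dio2 and Elovl3 formed another pair, in which 1 library stood alone. Dio2, the deiodinase that makes active thyroid hormone inside brown fat cells, was at 8.87, 8.06, 7.77 and 7.73 in the Ad/NICD samples, against 8.74, 11.21, 8.59 and 8.19 in the WT samples. Elovl3, a fatty acid elongase that cold induces in brown fat, was at 7.91, 6.74, 6.43 and 6.63 in the Ad/NICD samples, against 7.73, 9.91, 7.48 and 7.46 in the WT samples. In both genes WT replicate 2 stood far above the other 7 samples, which lay within 1.14 log2 units of each other for Dio2 and 1.48 for Elovl3. The pair correlated at r = 0.98 over the 8 samples. Mean ratios were -1.08 ± 0.55 for Dio2 (adjusted p = 0.426) and -1.22 ± 0.53 for Elovl3 (adjusted p = 0.368; SE, n = 4, limma). Without the array of replicate 2 they were -0.38 and -0.57. The Elovl3 ratio was -1.98 in the authors' value table and -1.97 from the scanner's processed signals, and which step moves it was not tested. Its raw red signals in the Ad/NICD samples were dim, at 117, 56, 37 and 52 over a median red background of 19 to 20.

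Cox7a1 and Cox8b are the forms of 2 cytochrome c oxidase subunits that brown fat shares with heart and muscle. Cox7a1 was at 14.52, 14.18, 13.17 and 14.11 in the Ad/NICD samples, against 12.48, 14.86, 12.67 and 14.06 in the WT samples. Cox8b was at 15.24, 14.83, 14.40 and 15.04 in the Ad/NICD samples, against 13.78, 15.48, 14.38 and 14.87 in the WT samples. For both genes WT replicates 1 and 3 were at the low end with Ad/NICD replicate 3, and WT replicate 2 was at the top. The pair correlated at r = 0.96. Mean ratios were 0.48 ± 0.44 for Cox7a1 (adjusted p = 0.657) and 0.25 ± 0.34 for Cox8b (adjusted p = 0.773; SE, n = 4, limma), each carried by the array of replicate 1 with ratios of 2.04 and 1.46. WT replicate 4 also held far more skeletal muscle RNA than the rest, described with the marker lists. Its Cox7a1 and Cox8b lay above those of WT replicates 1 and 3 and below those of Ad/NICD replicates 1 and 4. The part of muscle RNA in these levels was not tested.

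The levels of the regulators Ppargc1a and Prdm16 varied less from sample to sample. Ppargc1a was at 9.28, 9.38, 8.46 and 9.56 in the Ad/NICD samples, against 8.73, 9.65, 8.61 and 8.70 in the WT samples, on its brighter probe. WT replicates 1, 3 and 4 lay together near the low end, and WT replicate 2 was again highest. The mean ratio was 0.25 ± 0.21 (SE, n = 4, limma adjusted p = 0.636), and 0.04 without the array of replicate 4. The dimmer Ppargc1a probe gave -0.06, between 6.25 and 6.89 in all samples, so the probes disagreed on the sign. Prdm16 was at 7.60, 7.70, 7.32 and 8.16 in the Ad/NICD samples, against 7.52, 7.97, 7.38 and 7.85 in the WT samples. It had the narrowest span of the 10 genes, 1.78-fold, and it was the only one of them whose highest sample was not WT replicate 2 but Ad/NICD replicate 4. The Prdm16 ratio of 0.02 ± 0.11 had an interval from -0.25 to 0.29 (SE, n = 4, limma adjusted p = 0.953).

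Tbx1, a T-box factor used in mice as a marker of beige cells, was the gene that separated the samples by genotype. It was at 8.84, 9.22, 8.67 and 9.07 in the Ad/NICD samples, against 9.64, 9.85, 9.60 and 9.56 in the WT samples. All 4 Ad/NICD samples lay below all WT samples, a pattern that 5.59% of all gene names shared in this direction, and the ratio was below 0 on 4 of 4 arrays, as for 13.3% of gene names. The mean ratio was -0.71 ± 0.09 (SE, n = 4), or a level 0.611 times that of WT, with an interval from -0.94 to -0.48. It did not pass the threshold in the paired fit (limma, adjusted p = 0.114). When the array entered as a random block it did, at an adjusted p of 0.025, where 2.00% of gene names were called (1.14% lower in Ad/NICD), and without a block at 0.048, where 1.03% were called. With WT replicates 1 and 3 as 1 sample and no block, it did not (adjusted p = 0.139), in a fit that called 11 gene names. The paired fit with its interval and the 2 fits that called Tbx1 all count these WT libraries separately. With the arrays of replicates 1 and 3 averaged, the paired fit gave -0.66 (limma, adjusted p = 0.338). Group means were 8.95 ± 0.25 (SD, n = 4) in Ad/NICD and 9.68 ± 0.15 (SD, n = 3) in WT. Its direction held in all 15 alternative settings, between -1.21 and -0.64. Those that changed only the filter, the probe choice, the moderation or the block left the ratio as it was. The value of -1.21 came from median centring, where the median of all genes was -0.32.

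The genes differed in how closely they followed Ucp1 from sample to sample. Likeness was measured as Pearson's r of log2 levels over the 8 samples, with Spearman's rho beside it. It is given as a description, since the genes were proposed for this pattern, the samples share arrays in pairs, and WT replicates 1 and 3 may be 1 library. Cidea was closest (r = 0.90, rho = 0.93), then Cox8b (r = 0.87, rho = 0.90), Kcnk3 (r = 0.84, rho = 0.81) and Cox7a1 (r = 0.78, rho = 0.74). Elovl3 (r = 0.69, rho = 0.43), Dio2 (r = 0.66, rho = 0.36) and Ppargc1a (r = 0.66, rho = 0.50) came next. Prdm16 (r = 0.57, rho = 0.57) was lower, and Tbx1 (r = 0.12, rho = 0.02) lowest. The median of the 9 was 0.69, beside a median of 0.01 over all 25157 other gene names, of which 12.6% had r above 0.5 and 2.18% above 0.8. Of the 9 genes, 8 lay above 0.5 and 3 above 0.8. Among the 2841 other genes with a mean level over 12 the median r was -0.06, and 8.38% lay above 0.8.

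**Figure D3:**
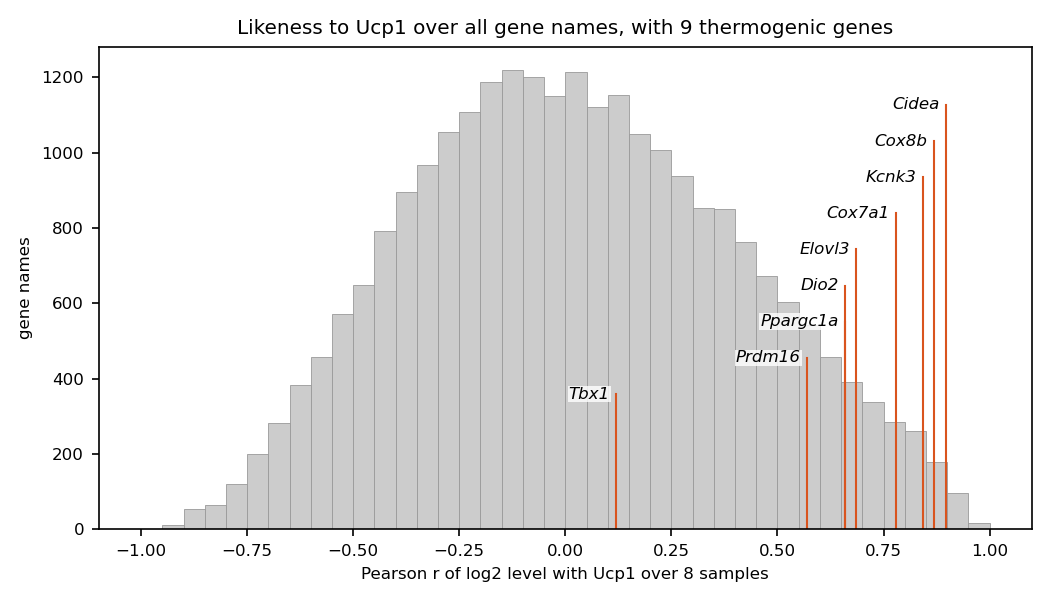
Pearson's r with Ucp1 of the log2 level over the 8 samples, for all 25157 other gene names (grey bars, number of gene names in steps of 0.05) and for the 9 thermogenic genes (orange lines, whose heights carry no value). Tbx1, at 0.12, lies in the middle of the grey distribution, and Cidea, at 0.90, in its upper tail.

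These values rested on different samples. Without Ad/NICD replicate 1 and WT replicate 2, the samples farthest from the median Ucp1 level, 6 samples were left. Cidea was then at 0.85, Kcnk3 at 0.80 and Cox8b at 0.74. Prdm16 (0.75) was higher than over all 8 samples, Cox7a1 (0.54) and Ppargc1a (0.40) were lower, and Elovl3 (-0.16) and Dio2 (-0.43) were below 0. Leaving out WT replicate 2 alone brought Dio2 to 0.19 and Elovl3 to 0.31, so their likeness to Ucp1 rests on that library, and it left 2 of the 9 genes above 0.8. Without the array of replicate 4, whose samples stood apart, the median over the 9 genes was 0.80, and Cidea reached 0.97 and Kcnk3 0.92. With WT replicates 1 and 3 as 1 sample, 7 samples gave a median of 0.76. Tbx1 also moved with the choice of samples, between -0.37 without the array of replicate 2 and 0.63 without the array of replicate 1, so its low r over all 8 samples depends on the array of replicate 1. Its r with Ucp1 about the mean of its own genotype was 0.21, beside 0.91 for Cidea, 0.90 for Cox8b and for Kcnk3, and 0.57 for Prdm16. By r over all 8 samples, Prdm16 lay above 90.7% of all gene names in likeness to Ucp1, and Tbx1 above 60.2%.

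**Figure D4:**
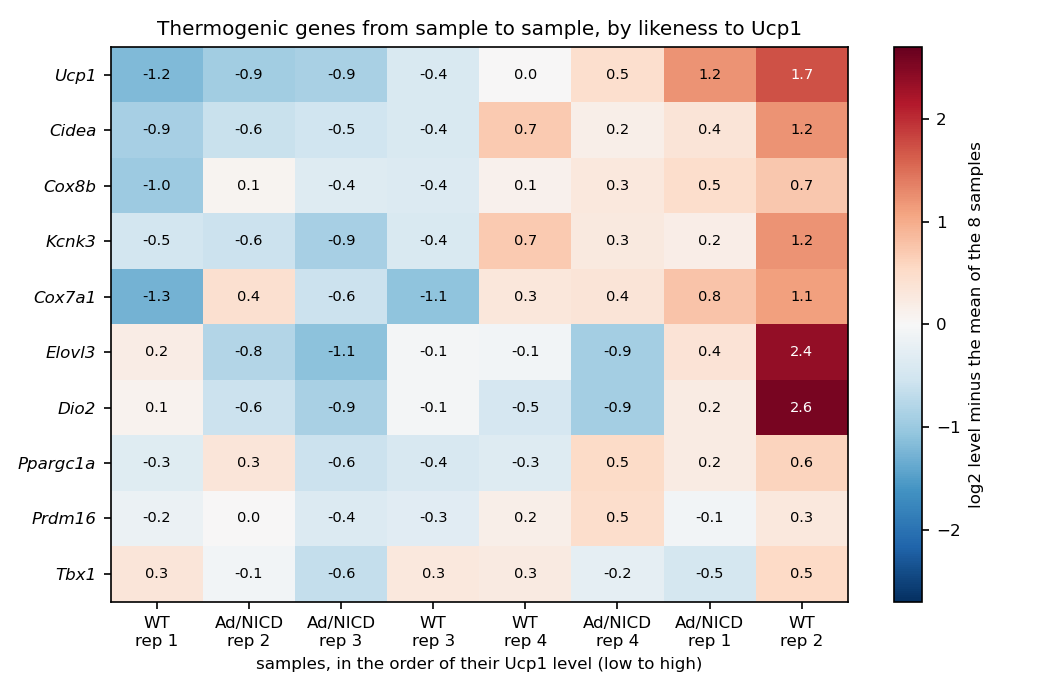
Log2 level of each of the 10 genes minus its mean over the 8 samples (red above, blue below, values printed to 1 decimal), with samples ordered by Ucp1 level and genes by their r with Ucp1. The column of WT replicate 2 is red in every row, deepest in Dio2 and Elovl3, and the bottom row, Tbx1, is above its mean in the 4 WT samples and below it in the 4 Ad/NICD samples.

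Among themselves, Cidea and Cox8b, each close to Ucp1, correlated at r = 0.85. Ppargc1a was closer to Cox7a1 (r = 0.79), Prdm16 (r = 0.78) and Cox8b (r = 0.76) than to Ucp1 (r = 0.66). Tbx1 was closest to Elovl3 (r = 0.66) and Dio2 (r = 0.61), and had an r of -0.05 with Cox8b and -0.06 with Cox7a1. WT replicate 2 was the highest sample for 9 of the 10 genes. The lowest was Ad/NICD replicate 3 for 5 genes, WT replicate 1 for 4 and Ad/NICD replicate 4 for 1.

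The 12 other genes most like Ucp1, by r over the 8 samples among gene names with a RefSeq symbol, were Mtres1, Cox6c, Fahd2a, Chchd10, Ndufb10, Pld6, Gpd1, Eno1b, Micos10, Aldoa, Uqcr11 and Cycs, with r between 0.95 and 0.98. Cox6c, Ndufb10, Uqcr11 and Cycs belong to the respiratory chain, Micos10 shapes the inner mitochondrial membrane, and Gpd1, Eno1b and Aldoa to glycolysis and the glycerol phosphate shuttle. Gpd1, which makes glycerol phosphate, was at 16.19, 15.01, 15.12 and 15.57 in the Ad/NICD samples, against 14.51, 16.48, 15.30 and 15.12 in the WT samples, a 3.91-fold span. Cycs, the electron carrier cytochrome c, was at 14.05, 13.56, 13.33 and 14.04 in the Ad/NICD samples, against 13.23, 14.52, 13.48 and 13.96 in the WT samples. Their spans were smaller than that of Ucp1, from 1.32-fold for Fahd2a to 3.91-fold for Gpd1, with WT replicate 2 at the top of all 12. None of the 12 passed the genotype test (limma, 0 also at an unadjusted p under 0.05), with mean ratios from -0.08 to 0.12. They were picked for following Ucp1, whose mean ratio was near 0 and whose highest sample was WT replicate 2. Their small mean ratios and their highest sample follow from that choice and are no separate result.

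A list of 38 respiratory chain genes followed Ucp1 as a group. The median r was 0.84, and 27 of 38 lay above 0.8, beside the 2.18% of all gene names. Most of the list is bright, and among other genes with a mean level over 12 the share was 8.38%. Without WT replicate 2 the median was 0.72, with 11 of 38 above 0.8. The median level of the list was 13.78, 13.48, 13.36 and 13.67 in the Ad/NICD samples, against 13.42, 14.15, 13.54 and 13.72 in the WT samples. That is a narrower span than for Ucp1, with the same sample on top and Ad/NICD replicate 3 at the bottom. Cox6c (0.98) and Cycs (0.95) were the most alike, and Atp5g1 (-0.79) and Atp5j (0.08), both of ATP synthase, the least. None of the 38 passed the genotype test (limma, 2 at an unadjusted p under 0.05, beside 15.2% of all gene names), and the median ratio was -0.13, with 10 above 0 and 28 below.

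Of 40 other brown and beige genes, 38 were measured. Their median r with Ucp1 was 0.56, and 10 of 38 lay above 0.8. Without WT replicate 2 the median was 0.40, with 5 of 38 above 0.8. Letmd1 (0.94), Acot11 (0.92), Gk (0.91), the glycerol kinase, and Otop1 (0.88) were closest. Zfp516 (-0.37), Epsti1 (-0.30), Tmem26 (-0.23) and Slc29a1 (-0.22), which other work uses as beige markers or regulators, were the least like it. Zfp516 lay between 6.21 and 6.38 and Tmem26 between 6.26 and 6.70 in all 8 samples. Both were close to Eif2s3y in the 6 samples that lacked it (5.81 to 6.06), so their r rests on small differences between dim signals. In the paired fit 0 of 38 passed (limma, 17 at an unadjusted p under 0.05, 6 higher and 11 lower, beside 15.2% of all gene names). When the array was a random block, 4 of 38 did, 2 higher and 2 lower, beside 2.00% of all gene names, in the fit that counts WT replicates 1 and 3 separately. These were Gatm, which makes the creatine precursor (0.74, adjusted p = 0.0111), S100b, which brown adipocytes release to attract nerve fibres (1.35, adjusted p = 0.0230), Nrg4, a secreted factor of brown fat (-1.33, adjusted p = 0.0304), and Adrb3, the adrenergic receptor of adipocytes (-1.87, adjusted p = 0.0389). Adrb3 was at 11.42, 10.90, 11.61 and 12.91 in the Ad/NICD samples, against 13.63, 13.11, 13.65 and 13.91 in the WT samples, and its r with Ucp1 was 0.04. S100b was at 11.21, 11.23, 10.71 and 11.67 in the Ad/NICD samples, against 9.48, 10.24, 9.55 and 10.14 in the WT samples, in the opposite direction. In both genes the groups did not overlap, as for 9.82% of all gene names. Over the list 14 mean ratios were above 0 and 24 below, with a median of -0.23.

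Among 19 measured paralogues of the 10 genes, the median r with Ucp1 was 0.09 and 1 lay above 0.8. Ucp2 and Ucp3, the uncoupling protein relatives found outside brown fat, had r of 0.09 and -0.20, and spans of well under 1 log2 unit. Ucp3 was at 10.41, 10.69, 10.64 and 10.72 in the Ad/NICD samples, against 10.47, 10.52, 10.54 and 10.97 in the WT samples. Cox7a2, the widespread counterpart of Cox7a1, had r = 0.91 with a far smaller amplitude, at 13.29, 13.12, 13.03 and 13.35 in the Ad/NICD samples, against 12.88, 13.61, 13.07 and 13.32 in the WT samples. Cox8a, the counterpart of Cox8b, had r = 0.65. Elovl6 (0.77) and Cideb (0.76) were intermediate. Tbx15, a T-box gene of fat depots, had a mean ratio of 0.49 (limma, adjusted p = 0.135), opposite in sign to that of Tbx1, and Tbx2 (0.03) and Tbx3 (-0.11) had ratios near 0.

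**Figure D5:**
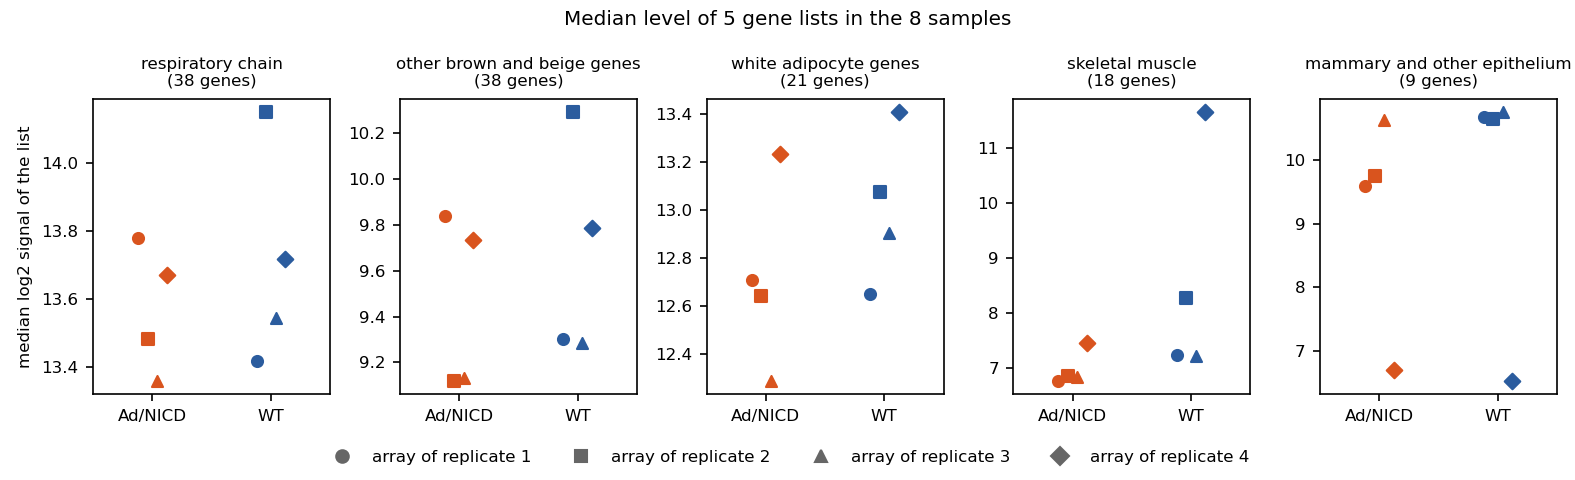
Median log2 signal of 5 gene lists in the 4 Ad/NICD samples (orange, left) and the 4 WT samples (blue, right), each panel on its own scale, with shapes for the replicate number. WT replicate 2 is highest for the respiratory chain and the other brown and beige genes, WT replicate 4 for skeletal muscle, and both samples numbered 4 are lowest for epithelium.

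Markers of other cells varied between the same libraries. The 18 skeletal muscle genes had medians of 6.76, 6.84, 6.82 and 7.45 in the Ad/NICD samples, against 7.24, 8.27, 7.21 and 11.65 in the WT samples. WT replicate 4 was the highest by far, and WT replicate 2, highest in Ucp1, was next. Myh4, the fast myosin, was at 7.97, 9.32, 8.55 and 11.18 in the Ad/NICD samples, against 9.77, 11.96, 9.65 and 15.58 in the WT samples. Mylpf and Myh7, also muscle genes, stayed between 6.50 and 7.06 and between 6.57 and 6.87 in all 8 samples. Ucp1 in WT replicate 4 was at 13.44, in the middle of its range, and no muscle gene had an r with Ucp1 above 0.5 over the 8 samples. Without the array of replicate 4 the median r of the list was 0.54, beside 0.24 over all 8 samples, and the part of muscle RNA in these levels was not tested. The 7 macrophage genes had a median r of -0.52, with Itgam at 0.33 as the exception in sign, and median levels of 11.15, 11.24, 11.27 and 11.08 in the Ad/NICD samples, against 11.21, 11.00, 11.22 and 10.73 in the WT samples. Cited1, on the list of beige genes, moved with the epithelium list, at 12.75, 11.50, 13.78 and 7.33 in the Ad/NICD samples, against 13.53, 13.37, 13.74 and 8.53 in the WT samples. The part of epithelium in its level was not tested.

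All 21 white adipocyte genes passed the filter on dim probes. Adipoq, the adipocyte hormone adiponectin, was at 14.42, 14.34, 14.02 and 14.97 in the Ad/NICD samples, against 15.45, 15.57, 15.69 and 14.82 in the WT samples. The median ratio of the list was -0.50, with 15 of 21 below 0, and 0 of 21 passed in the paired fit (limma, 11 at an unadjusted p under 0.05, 1 higher and 10 lower, beside 15.2% of all gene names). When the array was a random block, counting WT replicates 1 and 3 separately, 4 of 21 were lower, beside 1.14% of all gene names, among them Slc7a10 (-1.67, adjusted p = 0.0210) and Wfdc21 (-3.00, adjusted p = 0.00858). Their median r with Ucp1 was 0.29. The median level of the list was 12.71, 12.64, 12.29 and 13.23 in the Ad/NICD samples, against 12.65, 13.08, 12.90 and 13.41 in the WT samples, so the groups overlapped. Tbx1 and this median were both lowest in Ad/NICD replicate 3. Ad/NICD replicate 4 had a higher median than WT replicates 1 to 3 and less Tbx1. WT replicate 4 had the highest median and the lowest Tbx1 of the WT samples. The summed signal of the list, in which bright genes weigh most, ordered the samples otherwise. It was 237185, 212908, 168628 and 317120 in the Ad/NICD samples, against 332256, 432672, 415914 and 315615 in the WT samples. By this sum WT replicate 4 was the lowest WT sample, as in Tbx1, and Ad/NICD replicate 4 lay below WT replicates 1 to 3. The part of adipocyte content in the Tbx1 levels was not tested.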

How the data were processed

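Total RNA of white adipose tissue in 4 Ad/NICD and 4 WT samples was hybridised to 4 arrays with 2 colours. Spots were quantified in Agilent Feature Extraction 11.5, per the submitters' processing notes. Each deposited table lists intensity values per spot, and a log10 ratio of red over green that was not used further. The authors' deposited value table holds log2 values, namely the processed signal of 1 channel less a constant per column, with a median between -3.84 and -3.52 and the upper quartile near 0. The sources used here do not say how it was made. Same-numbered WT and Ad/NICD scanner tables were identical, and their channels were assigned by this value table, as the likely direction.

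From the median foreground and background, signals were corrected with normexp (offset 50), normalised by loess within each array with control spots at weight 0, and scaled between arrays by Aquantile for levels (limma 3.58.1, R 4.3.3). Probes above background in a channel on at least 3 of 4 arrays were kept, and the brightest probe stood for a gene name. Background flags of the array of replicate 1 were rebuilt by a rule that matched the flags of the other 3 arrays for 98.3% to 100.0% of spots. Names came from a RefSeq table of GRCm38.p6 for 28026 probes, and 27655 kept the name in the files. Ratios were tested against 0 with lmFit and eBayes, with Benjamini-Hochberg adjustment over 25158 gene names and a threshold of 0.05, and the steps were tested on simulated data. The array pairs the samples. Same-numbered samples correlated at 0.18, 0.17, 0.56 and 0.53, as deviations from group means. The p-values measure the spread between these samples, and precision is limited by having 4 arrays.

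The genes, lists and tests were chosen with earlier results of these data known. All 10 genes are named with every probe. The 12 genes most like Ucp1 were named by Pearson's r, and from each list up to 4 genes by lowest p, highest r or lowest r, with related genes named freely. Alternatives covered background correction, centring, filters, probes, moderation, the replicate block, the value table and left-out replicates, and others added after seeing the data treated WT replicates 1 and 3 as 1 sample or left out single samples.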

Additional observations from a re-analysis of the deposited data

How the results depend on the processing

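None of the 10 genes passed in 13 of 15 alternatives, and Tbx1 alone passed with no replicate block and with the array as a random replicate block (1 gene each). The count over all gene names, 12 in the paired fit, was 3 with the scanner's processed signals, 3 in the authors' value table, 0 with median centring (9624 at an unadjusted p under 0.05), 0 with no filter on dim probes (5094), 0 with trend and robust moderation (2898), 259 with no replicate block and 504 with the array as a random replicate block. Leaving out replicate 1, 2 or 3 gave 0 (3570, 2543 and 1993) and leaving out replicate 4 gave 42. Averaging the arrays of replicates 1 and 3, an alternative chosen after seeing the data, gave 0 (2719). The cause was not tested. Median centring moved the median of all genes to -0.32, so its ratios for Prdm16 (-0.32) and Ppargc1a (-0.24) are about 0 relative to that shift, and Tbx1 was at -1.21. Over 150 repeats of the 10 ratios, 140 kept the sign. Many of these repeats could not turn it. The settings that changed only the filter, the moderation or the replicate block returned the same mean ratios as the main fit. The median likeness to Ucp1, 0.69, ranged from 0.49 without WT replicate 2 to 0.82 on deviations from genotype means. With 4 arrays, 1 dye orientation and WT libraries 1 and 3 alike within spot noise over bright spots as a whole, genotype differences of over 1 log2 unit could not be resolved for 7 of the 10 genes.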
